A study of Mus musculus with 407 samples.

Results

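The small leucine-rich proteoglycans are a family of secreted matrix proteins, and 10 of their genes were followed here by symbol (Dcn, Bgn, Lum, Fmod, Ogn, Omd, Prelp, Kera, Aspn and Podn) out of 24458 gene symbols in the count tables. All 10 were found and all 10 passed the filter on low counts in every muscle and sex. Total RNA came from 4 muscles (diaphragm, gastrocnemius, soleus, tibialis anterior) of female and male C57BL/6J mice, with age the only variable besides sex and muscle. Mice were 6, 12, 18, 21, 24 or 27 months old, and each of the 48 groups of sex, muscle and age held 6 to 10 libraries, 407 in all. The libraries of a group came from separate mice, bought at different ages. Tissues of 1 age were collected on 1 day, so age and collection day cannot be told apart, and no label links the muscles of a mouse.

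Each of these proteins has a core of leucine-rich repeats, and most carry chondroitin, dermatan or keratan sulfate chains. They bind collagen fibrils, set fibril diameter and spacing, and hold or present growth factors such as transforming growth factor beta. In muscle they are made mainly by fibroblasts of the connective tissue layers and by cells of tendon and aponeurosis. Decorin (Dcn), biglycan (Bgn) and asporin (Aspn) form class I, fibromodulin (Fmod), lumican (Lum), keratocan (Kera), osteomodulin (Omd) and Prelp form class II, osteoglycin (Ogn) belongs to class III and podocan (Podn) to class V.

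Several of these genes lie side by side in the mouse genome (GRCm38). Dcn (chr10:97479500-97518163), Lum (chr10:97565501-97572703) and Kera (chr10:97606962-97613688) followed each other on the plus strand of chromosome 10. Aspn (chr13:49544443-49567565), Omd (chr13:49582462-49592612) and Ogn (chr13:49608015-49624501) did so on chromosome 13, inside the span of Cenpp, and the strand setting of the counting is not stated, so reads of overlapping genes may have been shared. Fmod (chr1:134037254-134048280, plus strand) and Prelp (chr1:133910304-133930102, minus strand) both lay on chromosome 1, with Bgn at chrX:73483601-73495936 and Podn at chr4:108014793-108031954.

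The 150 bases before the start of the 3 chromosome 13 genes and of Fmod are shown, since the former lie side by side and the latter was a gene with a fall in both sexes. They are RefSeq sequence of GRCm38.p6, plus strand, at chr13:49544293-49544442 (Aspn), chr13:49582312-49582461 (Omd), chr13:49607865-49608014 (Ogn) and chr1:134037104-134037253 (Fmod), and capitals mark the motif CANNTG (the core of an E-box) or the motif CAGAC (a core bound by Smad factors) on the printed strand.
Aspn: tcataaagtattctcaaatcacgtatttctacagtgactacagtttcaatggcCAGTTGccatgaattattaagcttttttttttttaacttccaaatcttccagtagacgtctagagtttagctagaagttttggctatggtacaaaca
Omd: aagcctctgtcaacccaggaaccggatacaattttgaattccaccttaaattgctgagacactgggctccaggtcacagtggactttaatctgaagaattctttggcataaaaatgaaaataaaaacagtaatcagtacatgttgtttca
Ogn: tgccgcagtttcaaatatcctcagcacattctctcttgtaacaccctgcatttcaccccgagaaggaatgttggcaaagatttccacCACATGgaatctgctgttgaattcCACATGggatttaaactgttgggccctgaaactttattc
Fmod: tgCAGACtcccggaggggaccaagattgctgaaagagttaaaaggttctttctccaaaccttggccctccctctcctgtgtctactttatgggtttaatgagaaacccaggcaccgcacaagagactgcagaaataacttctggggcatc

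Over the 250 bases upstream, searched on both strands, CANNTG was matched 3 times for Ogn, 1 time each for Aspn and Fmod and 0 times for Omd, and it was in 66.22% of 32851 upstream windows of all genes. TATAAA was matched 2 times each for Aspn and Ogn against a share of 12.37% of all windows, and CAGAC was matched 2 times for Fmod against 42.19%. GGGCGG, a GC box present in 32.74% of windows, was matched 3 times for Bgn and 0 times for the 4 genes shown. A match is a run of letters and no site of binding. Upstream windows were at hand for 8 of the 10 genes, all but Dcn and Lum.

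Total counts ran from 38583802 to 300089909 a library, with a median of 72766895. Even the rarest genes were well counted, with a median of 178 reads for Omd and 493 for Kera, although Kera had 0 reads in 2 male diaphragm libraries (18 and 21 months). The labelled muscles differed in fibre genes as their names imply: slow fibre transcripts (6 genes, among them Myh7) summed to 7027 to 22139 CPM (counts scaled to a common library size) in soleus and to 39.3 to 308 in tibialis anterior. Mesothelial transcripts (6 genes) summed to 35.8 to 266 CPM in diaphragm and to no more than 4.52 in any limb library. In 57 libraries liver transcripts were over 10 times the median of the same muscle and sex.

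Before any comparison, 8 libraries stood apart by the G and C content of what they held. For each library the deviation of 11070 genes from the median of the same muscle and sex was regressed on the GC content of the transcript, and the slope was over 0.5 log2 units per 10 percentage points in either direction in 8 libraries, a limit chosen after the values were seen. The 6 with a negative slope (−2.13 to −0.92) were diaphragm libraries of both sexes at 6 and 27 months and of females at 21 and 24 months, with the actin gene Acta1 at 0.0229 to 0.315 of the median of its muscle and sex. The 2 with a positive slope (0.661 and 0.734) were gastrocnemius libraries, of a female at 27 months and a male at 12 months. In the other 399 libraries the slope lay between −0.284 and 0.255.

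The family was divided in these libraries, though not in the order of GC content. Since the libraries were picked by their slope on GC content, such a division follows in large part from the choice. In the 6 diaphragm libraries the transcripts poor in G and C stood above the rest of their own groups on average. The mean log2 deviations were 1.07 for Lum (41.9% GC), 0.91 for Omd (36.1%), 0.84 for Aspn (34.3%) and 0.78 for Ogn (36.3%). Those of Kera (40.7%) and Dcn (42.8%) were 0.62 and 0.55. The GC-rich transcripts stood below, by −3.0 for Podn (57.2%), −1.19 for Fmod (53.7%), −0.84 for Prelp (53.8%) and −0.32 for Bgn (52.5%). Single libraries lay on both sides of 0 for Omd (−0.61 to 3.55), Kera (−1.09 to 1.88), Fmod (−2.59 to 0.19) and Bgn (−0.69 to 0.19). The cause of the GC slope in these libraries was not tested. Calls at 27 months in diaphragm and gastrocnemius that were gained or lost without these 8 libraries, an alternative added after the data were seen, are therefore given both ways.

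The libraries also differ by the sample numbers in their labels, which fall into 3 runs. In male diaphragm 6 of 8 libraries at 6 months came from the second run and 6 of 10 at 27 months from the first.

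**Figure D1:**
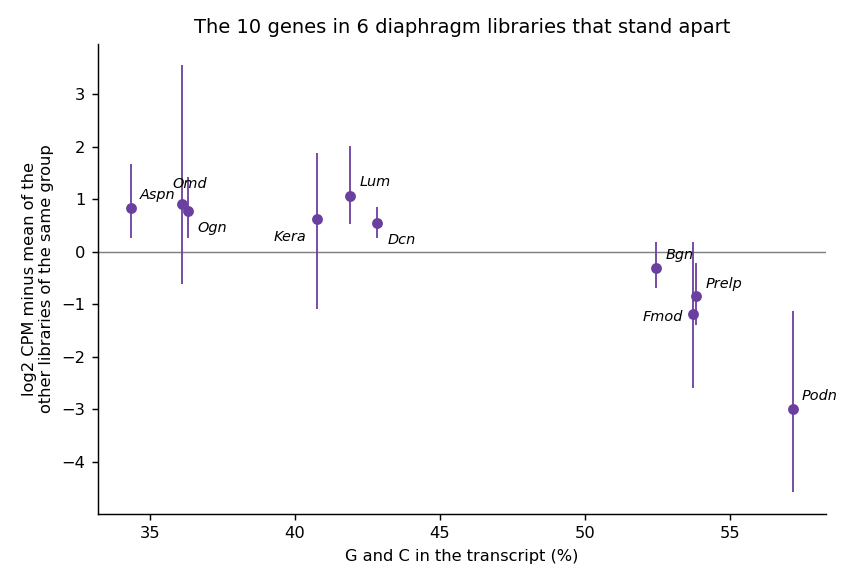
Deviation of the 10 genes in the 6 diaphragm libraries with a negative GC slope. The x axis gives the GC content of the transcript in percent, the y axis log2 CPM minus the mean of the other libraries of the same group (points: mean of 6 libraries; bars: lowest to highest). The 6 genes at 42.8% GC or less have means above 0 and the 4 genes at 52.5% or more have means below 0. The libraries were picked by their GC slope, so this division follows in large part from the choice.

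The first question was whether the family changed with age within a muscle. At 27 against 6 months (10 and 8 libraries a group), 29 of the 80 tests of a gene in a sex and muscle passed an adjusted p of 0.05 (edgeR's quasi-likelihood test, Benjamini-Hochberg adjustment over all genes tested). Of these 28 were falls, while 7.27% of all gene tests in the same 8 fits were falls, and 1 was a rise. Kera fell in 6 of the 8 combinations of muscle and sex, Dcn, Fmod, Ogn and Omd in 4 each, and Lum, Prelp and Podn in 2 each. Bgn rose in 1 and Aspn was not called in any. Without the 8 libraries with a GC slope 33 tests passed, 32 of them falls, beside 7.82% of all gene tests. In bulk tissue, fewer cells of a type and less RNA in each cell cannot be told apart.

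**Figure D2:**
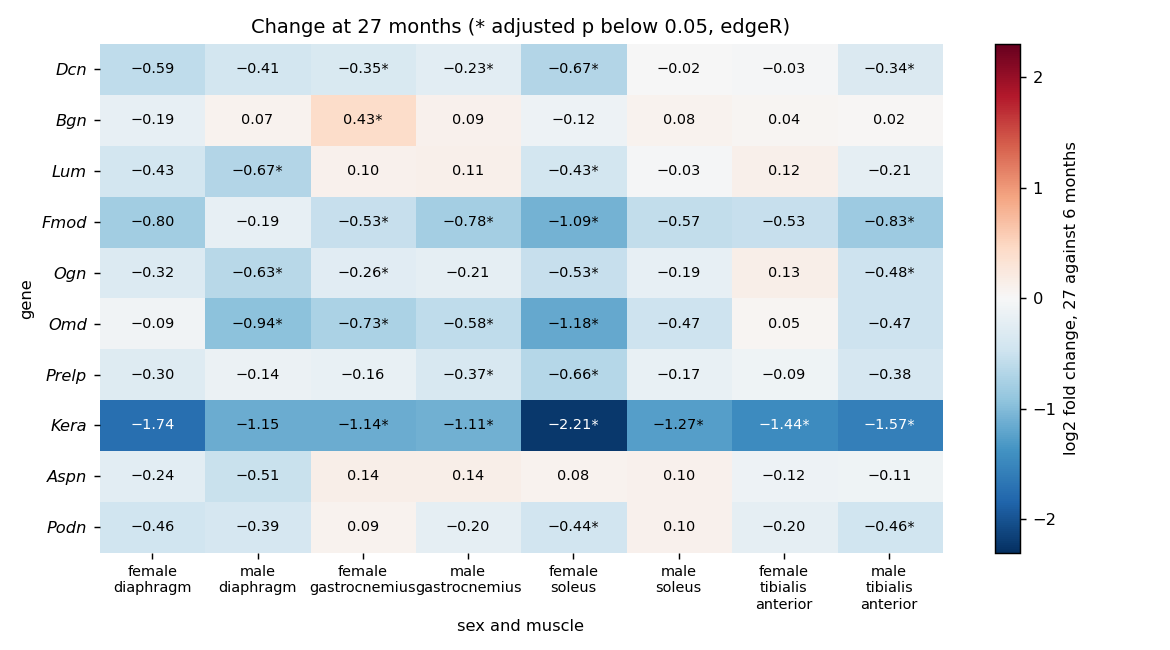
Log2 fold change at 27 against 6 months for the 10 genes (rows) in the 8 combinations of muscle and sex (columns), with all libraries. An asterisk marks an adjusted p below 0.05. Kera is below −1 in every column, and Aspn and Bgn lie close to 0 in most.

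Kera, a keratan sulfate proteoglycan best known from the cornea and also made in tendon, had the lowest log2 fold change of the 10 genes in all 8 fits. In female soleus it ran from 9.73 CPM through a median of 19.9 to 35.3 at 6 months, and from 1.95 through 3.67 to 10.1 at 27 months. The highest 27-month library there reached only just above the lowest at 6 months. The fall was 2.21 ± 0.31 (SE) on the log2 scale, that is a log2 fold change of −2.21 (adjusted p = 1.8e-06, edgeR).

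In male soleus the 8 libraries of 6 months held 6.42 to 13.0 CPM of Kera (median 10.1) and the 10 of 27 months 2.42 to 6.04 (median 4.24). These groups did not overlap, which held for 0.197% of all genes in that muscle and sex with the 27-month group below. The log2 fold change was −1.27 ± 0.26 (adjusted p = 0.0026, edgeR). In female gastrocnemius Kera went from a median of 22.1 CPM (13.6 to 23.5) to 8.30 (6.36 to 15.6), a change of −1.14 ± 0.13 (adjusted p = 1.7e-09, edgeR), or −1.11 ± 0.13 without the library with a GC slope. In male gastrocnemius the medians were 15.0 (11 to 18.9) and 7.17 CPM (2.20 to 11.4), and the change −1.11 ± 0.18 (adjusted p = 6.2e-06, edgeR).

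Tibialis anterior showed the same order of levels. Female libraries held 8.92 to 16.7 CPM of Kera at 6 months (median 13.4) and 1.83 to 11.3 at 27 months (median 3.43), and the change was −1.44 ± 0.26 (adjusted p = 5.3e-05, edgeR). Male libraries held 4.98 to 12.4 CPM (median 9.97) and 0.701 to 6.03 (median 2.70), with a change of −1.57 ± 0.31 (adjusted p = 0.00027, edgeR). In both sexes the ranges met, since the highest library of 27 months lay above the lowest of 6 months.

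Diaphragm was the most variable muscle for Kera. In females the median was 19.2 CPM at 6 months (5.58 to 46.1), 1.44 at 21 months (0.521 to 5.92) and 5.12 at 27 months (0.767 to 16.7). Kera fell at 21 and 24 months there (−3.14 ± 0.61 and −3.08 ± 0.56, adjusted p = 0.0024 and 0.00064, edgeR), where 1.02% and 2.37% of all genes fell, but at 27 months the change of −1.74 ± 0.53 was not called (adjusted p = 0.080, edgeR; 0.053 without the libraries with a GC slope). In males the medians were 20.3 CPM (6.15 to 31.5) and 4.40 (0.905 to 21.7), and the change of −1.15 ± 0.73 was not called (adjusted p = 0.34, edgeR).

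Fmod, which binds collagen fibrils and takes part in their maturation in tendon, fell in both sexes of gastrocnemius, in female soleus and in male tibialis anterior. In female soleus it ran from 272 CPM through a median of 356 to 484 at 6 months and from 102 through 162 to 253 at 27 months, with no overlap, as for 0.388% of all genes there. Its log2 fold change was −1.09 ± 0.20 (adjusted p = 0.00011, edgeR). In male gastrocnemius the groups did not overlap either (as for 2% of all genes): 193 to 256 CPM (median 233) against 92.7 to 167 (median 131), a change of −0.78 ± 0.11 (adjusted p = 3.5e-07, edgeR).

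Female gastrocnemius had medians of 277 CPM of Fmod at 6 months (248 to 312) and 179 at 27 months (150 to 330). The library at 330 CPM was the one with a GC slope, and without it the 27-month range ended at 235, below every 6-month library, as for 1.83% of all genes then. The change was −0.53 ± 0.11 with it and −0.64 ± 0.09 without it (adjusted p = 0.00015 and 3.1e-07, edgeR). In male tibialis anterior the medians were 125 CPM (90.3 to 201) and 62.8 (34.6 to 143), with a change of −0.83 ± 0.20 (adjusted p = 0.0020, edgeR). In male soleus (−0.57 ± 0.18) and female tibialis anterior (−0.53 ± 0.20) the adjusted p was 0.070 and 0.053. At 27 months Fmod in diaphragm was not called in females (−0.80 ± 0.34) or males (−0.19 ± 0.35), nor without the libraries with a GC slope (−0.89 and −0.29). In female diaphragm Fmod was called as a fall at 21 and 24 months, where 1.02% and 2.37% of all genes fell.

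**Figure D3:**
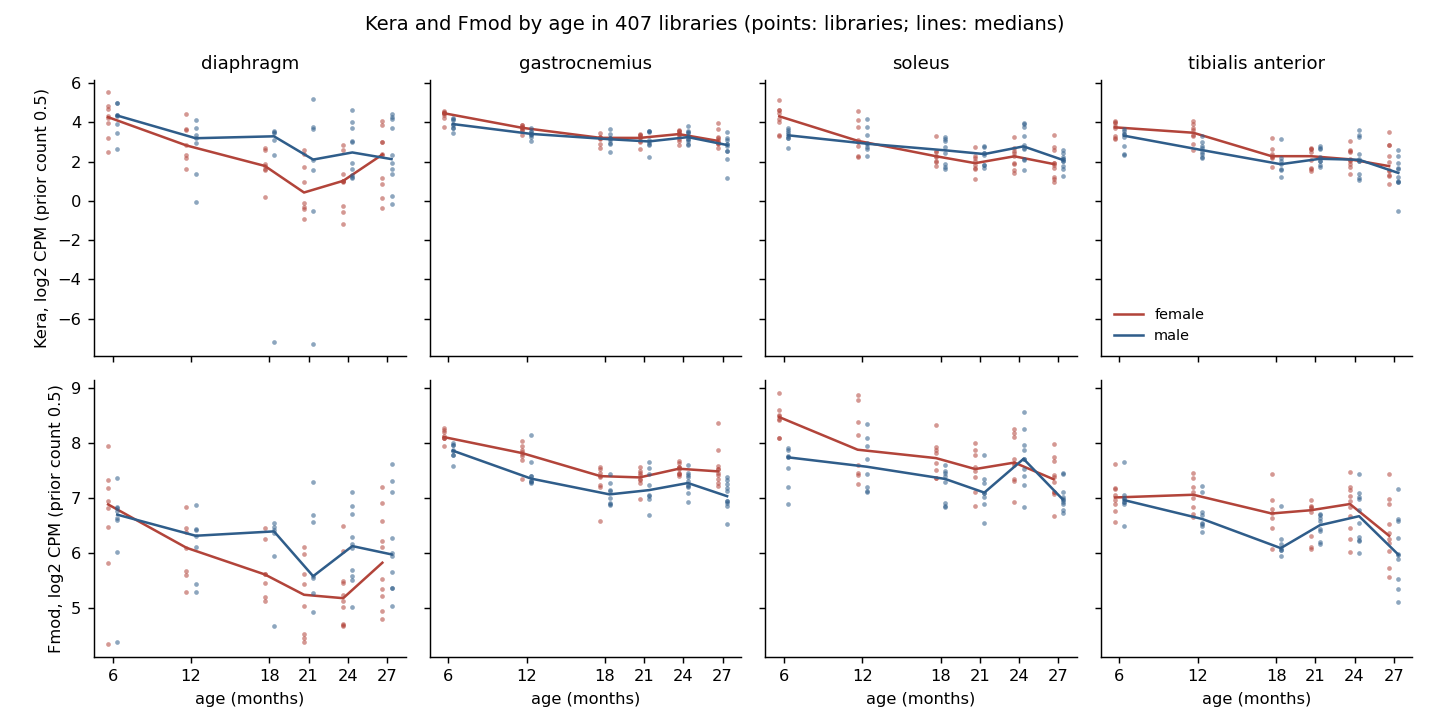
Kera (top) and Fmod (bottom) by age in months in the 4 muscles. The y axis is log2 CPM with a prior count of 0.5, each point is a library, lines join the medians, and red is female and blue male. The 2 points near −7 are male diaphragm libraries with 0 reads of Kera, and medians at 27 months lie below those at 6 months in all 16 curves.

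Tendon cell markers moved with both genes. Of 64 tests of the 8 tenocyte markers at 27 months, 27 were falls and 1 a rise (31 and 1 without the libraries with a GC slope), and the sum of the list went from a median of 510 CPM (400 to 584) to 252 (203 to 431) in female soleus and from 267 (240 to 300.2) to 210 (178 to 402) in female gastrocnemius. The scleraxis gene Scx was the marker that rose, in female gastrocnemius. In male diaphragm 0 of the 8 markers were called by edgeR (1 at an unadjusted p under 0.05, 0 by limma-voom and DESeq2) and their sum was 188 CPM (69.5 to 225) at 6 and 183 (68.5 to 259) at 27 months, and in male soleus, where Kera fell, 2 were called. Their part in the falls of Kera and Fmod was not tested.

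Omd, a keratan sulfate proteoglycan known from bone and tendon, was the rarest member by reads and fell in 4 fits. In female soleus it held 3.63 to 9.86 CPM at 6 months (median 4.28) and 1.10 to 3.16 at 27 months (median 2.48), with no overlap (as for 0.388% of all genes) and a change of −1.18 ± 0.20 (adjusted p = 2.2e-05, edgeR). In female gastrocnemius 2.42 to 4.04 CPM (median 3.25) stood against 1.25 to 2.40 (median 1.98), again apart, as for 1.44% of genes in that muscle and sex, and the change was −0.73 ± 0.12 (adjusted p = 3.2e-06, edgeR; −0.68 without the library with a GC slope). In male gastrocnemius the change was −0.58 ± 0.17 (adjusted p = 0.0089, edgeR). In female and male tibialis anterior, at 0.05 ± 0.20 and −0.47 ± 0.23, it was not called.

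Female diaphragm depended on the libraries with a GC slope for Omd. With all libraries the change at 27 months was −0.09 ± 0.37 (adjusted p = 0.98, edgeR), and replicate 0 at 27 months, one of those with a GC slope, held 36.8 CPM. Without the libraries with a GC slope the 9 others held 2.34 to 4.58 CPM against 3.86 to 16.8 at 6 months, and the change was −1.23 ± 0.21 (adjusted p = 0.00032, edgeR). In male diaphragm the change was −0.94 ± 0.26 with all libraries (adjusted p = 0.019, edgeR) and −0.87 ± 0.25 without those with a GC slope, and it was not called with the run in the fit (adjusted p = 0.63).

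Dcn, the main dermatan sulfate proteoglycan of muscle and a binder of transforming growth factor beta and myostatin, fell by less. In female gastrocnemius 438 to 535 CPM at 6 months (median 471) stood against 308 to 406 at 27 months (median 382), with no overlap, as for 1.44% of all genes there, and the log2 fold change was −0.35 ± 0.05 (adjusted p = 1.5e-06, edgeR; −0.32 without the library with a GC slope). In female soleus the medians were 702 CPM (529 to 923) and 462 (360 to 546), a change of −0.67 ± 0.13 (adjusted p = 0.00023, edgeR). These ranges met by a narrow margin. Dcn also fell in male gastrocnemius (−0.23 ± 0.06, adjusted p = 0.0018, edgeR) and male tibialis anterior (−0.34 ± 0.10, adjusted p = 0.014, edgeR). In female diaphragm the change of −0.59 ± 0.17 missed the threshold with all libraries (adjusted p = 0.057, edgeR) and passed it at −0.68 ± 0.16 without those with a GC slope (adjusted p = 0.0092). In male soleus and female tibialis anterior it was −0.02 ± 0.18 and −0.03 ± 0.10.

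Ogn, which takes part in fibril assembly and is also called mimecan, fell in female soleus from a median of 125 CPM (98.9 to 210) to 92.8 (73.6 to 117), a change of −0.53 ± 0.15 (adjusted p = 0.0081, edgeR), and in male tibialis anterior with a log2 fold change of −0.48 ± 0.16 (adjusted p = 0.031, edgeR). It was lost on leaving out a replicate number in 1 of 10 cases in female soleus (adjusted p up to 0.064) and in 4 in male tibialis anterior (up to 0.13), and in male tibialis anterior also with library totals. Its other calls depended on the libraries with a GC slope. In female gastrocnemius the change was −0.26 ± 0.09 (adjusted p = 0.035, edgeR), and −0.22 ± 0.09 without the library with a GC slope (adjusted p = 0.074). In male diaphragm it was −0.63 ± 0.19 (adjusted p = 0.035, edgeR) and −0.40 ± 0.17 without those libraries (adjusted p = 0.11; 0.65 with all libraries and the run in the fit), whereas in female diaphragm Ogn passed only without them (−0.52 ± 0.15, adjusted p = 0.036, against −0.32 ± 0.18).

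Lum, which spaces collagen fibrils, fell in female soleus from a median of 41.2 CPM (26.9 to 57.7) to 30.3 (20.8 to 44.4), a change of −0.43 ± 0.14 (adjusted p = 0.025, edgeR), and in male diaphragm (−0.67 ± 0.19, adjusted p = 0.021, edgeR; −0.50 ± 0.15 without the libraries with a GC slope, adjusted p = 0.029; not called with the run in the fit, adjusted p = 0.47). In female diaphragm it passed only without those libraries (−0.66 ± 0.18, adjusted p = 0.027). In both gastrocnemius groups its estimates were 0.10 ± 0.10 and 0.11 ± 0.13, on the other side of 0 and not called. Prelp, a linker of basement membranes to the matrix beneath, fell in female soleus (−0.66 ± 0.16, adjusted p = 0.0024, edgeR; medians 129 and 77.7 CPM) and male gastrocnemius (−0.37 ± 0.10, adjusted p = 0.0057; medians 81.3 and 62.5 CPM). Podn, a podocyte and vessel wall member that binds collagen, fell in female soleus (−0.44 ± 0.12, adjusted p = 0.0062, edgeR) and male tibialis anterior (−0.46 ± 0.13, adjusted p = 0.0076), and in male diaphragm only without the libraries with a GC slope (−0.46 ± 0.14, adjusted p = 0.027).

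The members of class I other than Dcn behaved otherwise. Bgn, which also signals through Toll-like receptors when free, was the gene that rose: in female gastrocnemius 74.9 to 91.2 CPM at 6 months (median 79.5) stood against 88.3 to 165 at 27 months (median 104). The log2 fold change was 0.43 ± 0.09 (adjusted p = 0.00013, edgeR), and 0.34 ± 0.07 without the library with a GC slope, which was the one at 165 CPM (adjusted p = 0.00028). Among all genes there 14.6% were called as rises. In the other 7 fits Bgn lay between −0.19 and 0.09 and was not called. Aspn, a calcium-binding relative of decorin, lay between −0.51 and 0.14 in the 8 fits, with no call at 27 months.

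By muscle and sex, female soleus held the most falls. In female soleus 8 of the 10 genes fell (all but Bgn and Aspn), beside 8.64% of all genes tested. In female and male gastrocnemius 5 each fell, beside 14.5% and 12.6%, and without the libraries with a GC slope the shares were 14.9% and 13.2% with 5 falls each (in females Prelp in place of Ogn). In male tibialis anterior 5 fell beside 7.8%, in female tibialis anterior Kera fell beside 9.79%, and in male soleus Kera fell beside 1.05%.

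Diaphragm was again divided by the libraries with a GC slope. In male diaphragm 3 genes fell (Lum, Ogn and Omd) beside 3.5% of all genes, and without those libraries Lum, Omd and Podn beside 4.75%. In female diaphragm 0 of the 10 were called by edgeR beside 0.988%, with 3 at an unadjusted p under 0.05, 1 by limma-voom and 2 by DESeq2. Without those libraries 4 fell (Dcn, Lum, Ogn and Omd) beside 2.96%. At earlier ages female diaphragm did have calls with all libraries. There 3 genes fell at 21 months (Dcn, Fmod and Kera) beside 1.02%, and 5 at 24 months (Dcn, Fmod, Kera, Lum and Ogn) beside 2.37%.

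The runs of sample numbers bear on these counts. With the run in the fit Lum, Ogn and Omd were no longer called in male diaphragm (adjusted p = 0.47, 0.65 and 0.63, edgeR). Within a run the 27-month mean could be set against the 6-month mean in 14 cases, some with 2 libraries on a side. Kera was lower at 27 months in 14 of 14 (differences of −2.37 to −1.06 in mean log2 CPM), as were Fmod (−1.21 to −0.28) and Dcn (−0.74 to −0.01). Omd and Prelp were lower in 13 each and Podn in 12, Ogn in 11, Lum in 10, Bgn in 7 and Aspn in 6. Each of these 10 numbers was the same without the libraries with a GC slope.

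The falls came at different ages. Against 6 months, 2 of 80 tests were falls at 12 months (0.088% of all gene tests in the 8 fits), 15 at 18 months (1.2%), 24 at 21 months (4.65%) and 24 at 24 months (5.7%), with no rise. The falls numbered 2, 16, 25 and 27 without the libraries with a GC slope, beside 0.125%, 1.55%, 5.39% and 6.68%, and Bgn rose at 24 months in female gastrocnemius (0.19 ± 0.07, adjusted p = 0.048, edgeR). These comparisons share their 6-month libraries. The pair at 12 months were Kera in female gastrocnemius (−0.69 ± 0.14) and Dcn in male gastrocnemius (−0.26 ± 0.06, adjusted p = 0.019, edgeR). There Dcn was not called without the library with a GC slope (−0.23 ± 0.06, adjusted p = 0.050) and Fmod was (−0.49 ± 0.11, adjusted p = 0.014). In female gastrocnemius the Kera median went from 22.1 CPM at 6 months through 13.2, 9.23, 9.22 and 10.5 to 8.30 at 27 months, so that most of the change lay before 18 months. In female tibialis anterior it went from 13.4 through 11.1, 4.83, 4.88 and 4.32 to 3.43 CPM.

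A slope on log2 age was called in 33 of 80 tests, 32 of them falling (9.7% of all gene tests were called falling), and in 36, 35 of them falling, without the libraries with a GC slope (10.3%). Per doubling of age Kera changed by −1.09 ± 0.12 in female soleus, −0.78 ± 0.10 in female tibialis anterior, −0.53 ± 0.05 in female gastrocnemius and −0.43 ± 0.12 in male soleus on the log2 scale, with calls in 7 of 8 fits, all but male diaphragm. Fmod was called in 6 fits, Omd and Dcn in 5 each. Aspn was called falling in female diaphragm, and only without the libraries with a GC slope (−0.22 ± 0.07, adjusted p = 0.021, edgeR). By the Bayesian information criterion, given as a description, 32 of the 80 courses were not flat, 28 of them a straight line and 4 a step. The steps were Kera, Fmod and Bgn in female gastrocnemius (midpoints at 11.8, 12.1 and 25.1 months, the last a rise) and Podn in male tibialis anterior. The Podn midpoint of 27 months was the last age and the upper limit of the midpoints tried, so no level after the step was seen. These numbers were also 32, 28 and 4 without the libraries with a GC slope, with Dcn, Lum and Ogn in male diaphragm flat and Omd in female and Podn in both diaphragm groups a straight line.

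The question of whether the change differed between muscles was tested in 1 fit over the 4 muscles of a sex. In females the interaction at 27 against 6 months was called for Dcn (adjusted p = 0.0218, edgeR), Bgn (0.0379) and Omd (0.0208), beside 13.2% of all genes, and in 5 members without the libraries with a GC slope, where Lum (0.0029) and Ogn (0.0237) were added, beside 22.1%. The Dcn change in soleus was lower than in tibialis anterior (a difference of −0.61 ± 0.17), as was that of Omd (−1.19 ± 0.35), beside 7.52% of all genes called between this pair. Ogn was called in the same direction between this pair. The Omd change in diaphragm stood above that in soleus by 1.08 ± 0.34 with all libraries, beside 5.02% of genes, a difference that was not called without those with a GC slope. For Bgn the change in diaphragm minus that in gastrocnemius was −0.61 ± 0.18, beside 3.21% of genes. Dcn was also called between diaphragm and tibialis anterior, lower in diaphragm. Without the libraries with a GC slope, Aspn, Bgn and Lum were called between diaphragm and gastrocnemius. Dcn, Lum, Ogn and Omd were then called between diaphragm and tibialis anterior, and all these changes were lower in diaphragm. The share of all genes called in these further comparisons is not given here. In males 0 members were called beside 4.1% of all genes, with 1 at an unadjusted p under 0.05 and 0 by limma-voom. Between pairs of male muscles, the Lum change in diaphragm minus that in gastrocnemius was −0.74 ± 0.22 (adjusted p = 0.035, edgeR), beside 3.4% of genes, and was not called without the libraries with a GC slope (−0.62 ± 0.22, adjusted p = 0.11). For Kera, called in 6 fits, no difference between muscles was called.

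Sexes were compared in each muscle over all ages. Of 40 tests 22 were called, beside 38.5% of all gene tests in the 4 muscles. Lum was higher in females in all 4 muscles, by 0.56 ± 0.05 on the log2 scale in gastrocnemius (female median 22.2 CPM, male 15.5) and by 0.36 ± 0.06, 0.28 ± 0.10 and 0.27 ± 0.07 in tibialis anterior, diaphragm and soleus. In diaphragm this call was lost once the run entered the fit (adjusted p = 0.077, edgeR). Fmod and Bgn were higher in females in the 3 limb muscles, by 0.41 ± 0.08 and 0.20 ± 0.06 in soleus, and Prelp in soleus (0.46 ± 0.07) and gastrocnemius (0.24 ± 0.04). Aspn was higher in female soleus (0.35 ± 0.06), and Ogn in soleus and gastrocnemius (0.20 ± 0.06 and 0.14 ± 0.06).

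Other members were lower in females. Dcn was lower in gastrocnemius (−0.20 ± 0.02) and tibialis anterior (−0.17 ± 0.04), and Podn in the same muscles (−0.17 ± 0.04 and −0.12 ± 0.05). Kera was higher in female tibialis anterior (0.33 ± 0.12) and gastrocnemius (0.22 ± 0.07) and lower in female diaphragm (−0.84 ± 0.28, adjusted p = 0.024, edgeR), a call that limma-voom did not make (−0.32, adjusted p = 0.58). By muscle, 2 of 10 were called in diaphragm beside 18.8% of all genes, 8 in gastrocnemius beside 58.2%, 6 in soleus beside 30.8% and 6 in tibialis anterior beside 47.8%. Without the libraries with a GC slope 23 were called, with Dcn in diaphragm added (−0.22 ± 0.06), beside 31.6% of all genes in diaphragm and 60.6% in gastrocnemius. A different change at 27 months in the sexes was called in 0 of 40 tests by edgeR, with 8 at an unadjusted p under 0.05 and 0 by limma-voom, beside 0% of all genes in diaphragm, 1.59% and 1.67% in gastrocnemius and tibialis anterior and 0.83% in soleus.

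At 24 against 6 months the change differed between the sexes in soleus for 4 of the 10 genes, beside 9.15% of all genes there. The change in females minus that in males was −1.79 ± 0.42 for Kera (adjusted p = 0.0036, edgeR), −0.93 ± 0.28 for Fmod (0.024), −0.77 ± 0.23 for Dcn (0.023) and −0.75 ± 0.24 for Lum (0.035). The Kera median in female soleus went from 19.9 CPM at 6 months to 4.81 at 24 months (2.69 to 9.47), and in male soleus from 10.1 to 6.84 (3.02 to 15.7). Without libraries high in liver transcripts Lum was not called (adjusted p = 0.074). The 24-month contrast in soleus was picked from contrasts between the sexes fitted at several ages, so its calls are not the result of a single planned test. In diaphragm no member was called in such a contrast at any older age. Soleus results at the ages before 24 months are not given here.

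**Figure D4:**
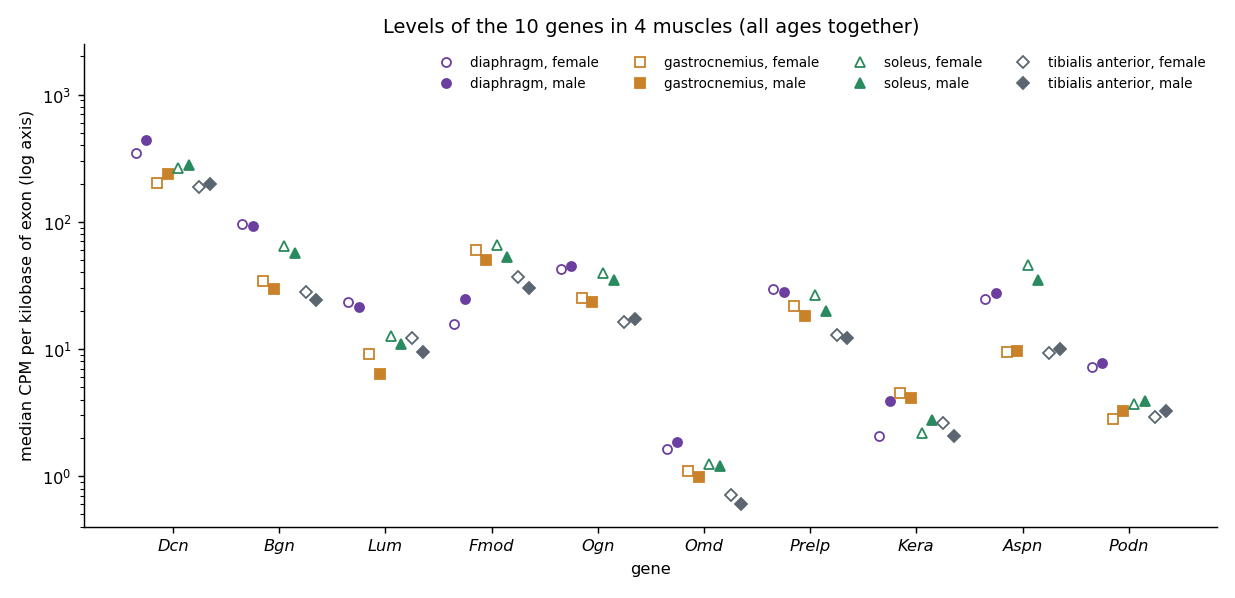
Median level of the 10 genes in the 4 muscles, as CPM per kilobase of exon on a log axis, over all ages (open symbols: female; filled symbols: male). Dcn has the highest level in every muscle, Fmod is lowest in diaphragm, and Aspn is highest in soleus.

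Levels differed between the 4 muscles for all 10 genes in both sexes, as they did for 97.6% of all genes in females and 96.8% in males, so that these calls say little about the family. Between pairs of muscles 57.5% (gastrocnemius and tibialis anterior) to 88.4% (diaphragm and tibialis anterior) of all genes differed in females, with 86.6%, 83.5%, 74.6% and 75.7% for the other pairs, and in males 55.1% to 86.6%, with 85.3%, 80.4%, 73% and 74%. Per kilobase of exon Dcn was the most abundant, at medians of 346 CPM per kilobase in diaphragm, 262 in soleus, 201 in gastrocnemius and 186 for tibialis anterior in females, and it made up a median of 49.8% of the summed level of the 10 genes in female soleus and 58.6% in female tibialis anterior. Omd was the lowest in every muscle, with medians of 0.714 to 1.62 CPM per kilobase in females, followed by Kera (2.08 to 4.53) or, in gastrocnemius, by Podn (2.84).

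Most members were highest in diaphragm. Bgn in females stood 1.5 ± 0.06 (log2) above gastrocnemius, 1.76 ± 0.06 above tibialis anterior and 0.56 ± 0.05 above soleus, with gastrocnemius above tibialis anterior by 0.25 ± 0.05. Lum, Dcn, Omd and Podn also had diaphragm first in both sexes, with Podn in gastrocnemius and tibialis anterior not separated (−0.01 ± 0.08 in females). Without the libraries with a GC slope diaphragm stayed first for Bgn, Lum, Dcn, Omd and Podn. Ogn in diaphragm lay 0.18 ± 0.06 above soleus in females, and 0.11 ± 0.06 without the libraries with a GC slope (adjusted p = 0.064, edgeR). Prelp in female diaphragm and soleus did not differ beyond their spread (0.10 ± 0.06, adjusted p = 0.13) with all libraries, but diaphragm was higher without those with a GC slope (0.15 ± 0.06, adjusted p = 0.020, edgeR).

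Aspn and Fmod broke that order. Aspn in gastrocnemius minus soleus was −2.34 ± 0.06 in females and −2.02 ± 0.08 in males, and diaphragm minus soleus was −0.86 ± 0.06 in females. Its median was 107 CPM in female soleus, 57.4 in diaphragm, 22.1 in gastrocnemius and 21.5 in tibialis anterior. Fmod had its lowest level in diaphragm, −1.69 ± 0.10 against gastrocnemius and −1.91 ± 0.10 against soleus in females, with medians of 48.9, 186 and 203 CPM. In males the difference of Fmod between diaphragm and tibialis anterior was −0.40 ± 0.10, and −0.14 ± 0.09 without the libraries with a GC slope (adjusted p = 0.17, edgeR). Kera was highest in gastrocnemius in females, 0.71 ± 0.14 above soleus and 0.77 ± 0.14 above tibialis anterior, which were not separated from each other (0.06 ± 0.14), and in males gastrocnemius and diaphragm were not separated (−0.07 ± 0.18).

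**Figure D5:**
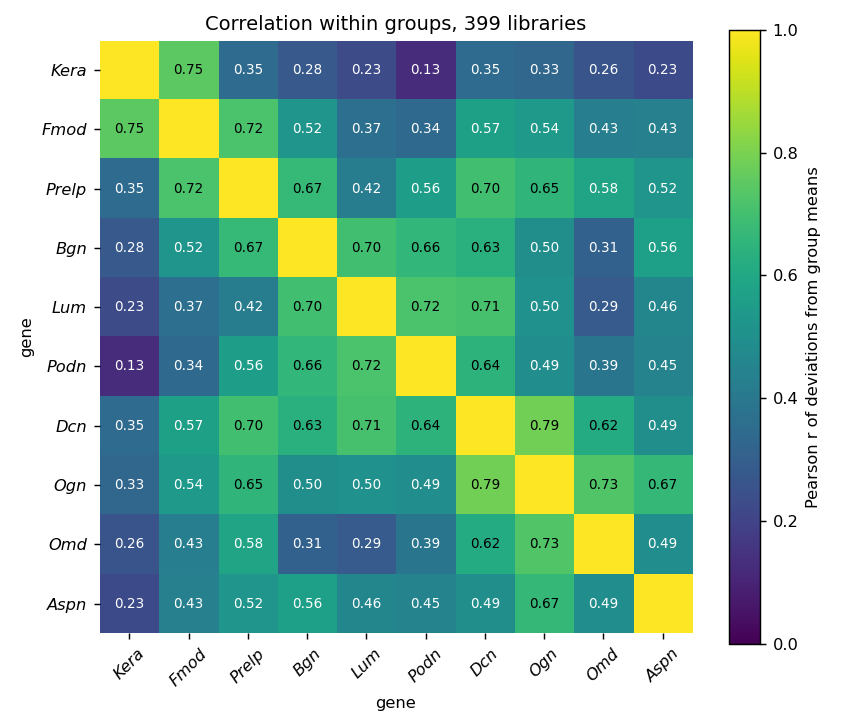
Pearson r between the 10 genes over 399 libraries, those with a GC slope left out, computed on deviations of log2 CPM from the mean of the group of sex, muscle and age. The highest values are 0.79 for Dcn and Ogn, 0.75 for Fmod and Kera and 0.73 for Ogn and Omd, and Kera with Podn is lowest at 0.13.

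The genes formed loose sets from library to library. Over 399 libraries (without those with a GC slope), deviations from group means were correlated with r from 0.13 to 0.79 (median 0.50) over the 45 pairs. These values describe libraries that share depth and scaling. Dcn and Ogn (0.79), Ogn and Omd (0.73), Ogn and Aspn (0.67) and Dcn and Lum (0.71) went together, and Fmod went with Kera (0.75) and Prelp (0.72). Prelp was nearly as close to Dcn (0.70) and was at 0.35 with Kera. Of the neighbours on chromosome 10, Dcn and Lum were at 0.71 but Kera was at 0.35 with Dcn and 0.23 with Lum, and on chromosome 13 Aspn and Omd were at 0.49. With all 407 libraries the r of Lum and Podn was 0.03 in place of 0.72.

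Part of this division showed against the marker lists, each taken as the mean of its genes' log2 deviations over the same 399 libraries. Fmod and Kera had r of 0.90 and 0.80 with the tenocyte markers. Dcn, Lum and Bgn had 0.81, 0.80 and 0.78 with the fibroblast markers, and Kera 0.18. With the macrophage markers Dcn, Lum and Bgn had 0.57, 0.54 and 0.63, and with the tenocyte markers 0.47, 0.36 and 0.53. Podn and Ogn had 0.70 and 0.60 with the fibroblast markers and 0.28 and 0.45 with the tenocyte markers. Prelp, Aspn and Omd were not divided in this way. They had 0.61, 0.43 and 0.33 with the tenocyte markers and 0.59, 0.45 and 0.40 with the fibroblast markers. Over the 48 group means of all 407 libraries, the genes most like Fmod were Cilp2 (0.97), Chad (0.94) and Col11a2 (0.93), and those most like Kera were Wif1 (0.84), Ppic (0.70) and Col13a1 (0.68). Within groups Kera was most like Chad (0.88) and Fmod most like Comp (0.87). Again over the 48 group means, the genes most like Dcn were Nid1, Ddr2 and Il1rap (0.96 each). For Bgn they were Vim (0.99), Fat1 and Meox1 (0.98 each), and for Lum Naalad2 (0.96), Plscr4 and Dph6 (0.95 each). For Ogn they were Fstl1, Lix1l (0.97 each) and Adamtsl3 (0.96), for Omd Chrdl1, Scrn1 (0.95 each) and Antxr2 (0.94), and for Prelp Pcdhgc3, Chrdl1 and Col16a1 (0.96 each). For Aspn they were Calu, Pls3 and Synj1 (0.98 each) and for Podn Rnase4 (0.97), Kcnt2 and Bicc1 (0.96 each). Without the libraries with a GC slope the first name changed for Dcn (Gpr153, 0.96), Omd (Igfbp6, 0.94), Prelp (Col16a1, 0.97) and Aspn (Pls3, 0.98), and the third for Fmod became Col11a1 (0.92). Group means of different muscles carry the muscle differences above.

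The partners of the family at 27 against 6 months were read from lists, with the 7.27% of falls and 7.98% of rises among all gene tests beside them (7.82% and 8.7% without the libraries with a GC slope) and medians of all genes from −0.03 to 0.03 in the 8 fits. Of other leucine-rich proteoglycan genes (9 genes, 54 tests), 13 tests were falls and 2 rises with a median log2 fold change of −0.30. Ecm2, a close relative of the chromosome 13 genes, fell in 7 of 8 fits (median −0.55), and Chad, the cartilage and tendon protein chondroadherin, in 6 (median −1.10). Fibrillar collagens, which the family binds, had 45 falls and 1 rise in 88 tests (median −0.67; 58 falls without the libraries with a GC slope). Col1a2 fell in 8 fits (median −1.21), Col1a1 in 6 (−1.32), Col11a1 in 6 (−1.18), Col3a1 in 5 (−0.94), Col5a1 and Col5a2 in 5 each (−0.70 and −0.46) and Col5a3 in 4 (−0.43).

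The beaded and fibril-surface collagens had 23 falls and 0 rises in 40 tests (median −0.51), among them Col6a1 in 7 fits (−0.66), Col6a2 in 5 (−0.58), and Col12a1 and Col6a3 in 4 each (−0.44 and −0.39). Enzymes that build the sulfated chains were near the background, with 21 falls and 10 rises in 197 tests (median −0.06), and Chpf2, a chondroitin polymerizing factor, rose in 4 fits (median 0.35). Of the proteinases that process or cut these proteins, 8 tests were falls and 8 rises out of 72 (median −0.08; 13 and 9 without the libraries with a GC slope, median −0.14), and the stromelysin gene Mmp3 rose in 5 fits (median 1.43). Growth factors and receptors they bind had 13 falls and 17 rises in 160 tests (median 0.01). Among them Tlr4, a receptor for free biglycan, rose in 4 fits (median 0.44) and Lrp6, a Wnt coreceptor, fell in 4 (median −0.12).

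Fibroblast markers moved beside the family as well. Of 112 tests of their 14 markers, 41 were falls and 4 rises (median −0.38). The falls numbered 9 of 14 in female soleus, where 8 family members fell, 11 in male tibialis anterior, 8 in male gastrocnemius, 7 in female gastrocnemius, 3 and 2 in female and male diaphragm, 1 in female tibialis anterior and 0 in male soleus. The list had 49 falls in all without the libraries with a GC slope, and 7 and 6 in female and male diaphragm, where 4 and 3 family members fell. In female soleus their sum went from a median of 1213 CPM (865 to 1416) to 790 (532 to 1017). In male soleus edgeR called 0 of the 14, with 7 at an unadjusted p under 0.05 and 0 by limma-voom and DESeq2, and the sums were 991 (760 to 1515) and 843 (670 to 992). Their part in the falls of the family was not tested.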

How the data were processed

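RNA-seq libraries of 407 muscle samples from 48 groups were used. The authors prepared strand-specific total RNA libraries, aligned reads to mm10 and deposited raw counts per gene from an in-house gene model with ArrayStudio. Where a gene symbol stood on several rows, the row with the largest total was kept. The other 633 rows (0.0335% of counts) were left out. The members and gene lists were chosen with earlier results of these data known. All 10 members were in every fit, and pathway genes are named where called in the same direction in at least 4 of 8 fits.

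Counts were scaled by TMM (factors 0.709 to 2.18), filtered by filterByExpr and tested with the quasi-likelihood test of edgeR 4.0.16 in R 4.3.3, in each muscle and sex with all 6 ages, with Benjamini-Hochberg adjustment at 0.05. Levels are CPM, with a prior count of 0.5 on the log2 scale; SE is the log2 fold change over the square root of F. Alternatives used DESeq2 1.42.0 and limma-voom (limma 3.58.1), other scalings, filters and libraries. The test was checked on simulated data. The GC slope limit, the fits without the libraries past it and the fits on library totals were added after seeing the data. Sequences and upstream windows are from RefSeq tables of GRCm38.p6, which hold 8 of the 10 genes.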

Additional observations from a re-analysis of the deposited data

Results flagged for a closer look

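Within groups of 6 and 27 months, 24 of the values of a member in 1 library lay far from the rest of their group by Dixon's test, and 16 of these came from libraries with a GC slope. Over all ages 41 of 480 groups were marked in this way, and chance marks about 1 in 20.

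Diaphragm held most of them. In female diaphragm at 27 months, replicate 0 had 205 CPM of Lum, 276 of Ogn, 36.8 of Omd and 162 of Aspn, all high, and 2.22 of Podn, low. In male diaphragm at 6 months, replicate 2 had 1524 CPM of Dcn, 162 of Lum, 345 of Ogn and 198 of Aspn, all high, and 20.9 of Fmod, 47.7 of Prelp and 1.36 of Podn, all low. Podn was also low at 3.51 CPM in replicate 2 of female diaphragm at 6 months and at 3.96 CPM in replicate 6 of male diaphragm at 27 months. All 4 of these libraries have a GC slope. Replicate 6 of male diaphragm at 27 months was also among the 57 libraries high in liver transcripts. Replicate 8 of male diaphragm at 27 months, which has none, was low in Omd (0.799 CPM) and Aspn (18.4 CPM).

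In the limb muscles, replicate 0 of female gastrocnemius at 27 months, with a GC slope, was high in Bgn (165 CPM) and Prelp (103 CPM). Kera was low at 13.6 CPM in replicate 4 of female gastrocnemius at 6 months. Bgn was low at 129 CPM in replicate 4 and Omd high at 9.86 CPM in replicate 1 of female soleus at 6 months. At 27 months Lum was low at 16.0 CPM in replicate 8 of male soleus, and replicate 8 of male tibialis anterior was low in Lum (9.08 CPM) and Kera (0.701 CPM).

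The change at 27 months differed between the muscles of females for Bgn (adjusted p = 0.0379), Dcn (0.0218) and Omd (0.0208) by the interaction test of edgeR. The change at 24 months differed between the sexes in soleus for Kera (adjusted p = 0.0036), Dcn (0.0234), Fmod (0.0238) and Lum (0.0349) by the same kind of test. That contrast between the sexes was picked from those fitted at several ages.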

How the results depend on the processing

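The 29 calls at 27 months numbered 9 with Bonferroni adjustment and 16 with a fold change above 1.5 asked for as well; the 33 calls of a slope on age numbered 12 with Bonferroni, and the 22 calls between sexes 8 with Bonferroni and 1 with the fold limit. Fewer calls follow from these stricter rules. With library totals in place of TMM, an alternative added after seeing the data, the sexes differed in their change for 2 members (Dcn −0.86 and Podn −0.74, soleus) in place of 0, and the muscles for 7 in place of 3; that number was 5 without the libraries with a GC slope and 0 with Bonferroni. Library totals moved the median of all genes by −0.19 in female soleus, −0.13 in female diaphragm and 0.12 in female gastrocnemius, and the share of falls among calls from 46.3% to 92.3%, from 61.5% to 87.1% and from 49.9% to 13.2%; 6 of the 29 calls were lost (Ogn in female gastrocnemius, male diaphragm and male tibialis anterior, Dcn in male gastrocnemius and tibialis anterior, Prelp in male gastrocnemius). No value changed sign among the calls. With DESeq2, limma-voom, other filters, the run of sample numbers, or without libraries high in liver transcripts, 27 to 33 tests were called at 27 months; without high-liver libraries the slope of Kera in male soleus was not called, nor were the sex differences of Kera in diaphragm (−0.71) and gastrocnemius (0.17), Ogn in gastrocnemius (0.11) and Bgn in soleus (0.16).

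Leaving out each replicate number in turn gave 24 to 32 calls at 27 months, and 20 of the 29 calls were kept in every case; Ogn in female gastrocnemius was lost in 7 of 10 cases, in male diaphragm in 6 and in male tibialis anterior in 4, Dcn in male tibialis anterior, Lum in female soleus and Omd in male gastrocnemius in 2 each, and Lum and Omd in male diaphragm and Ogn in female soleus in 1 each. The replicate numbers were not taken to pair samples, since no label says so. Same-numbered libraries were correlated in 24 sets of group pairs (medians −0.029 to 0.238), and in none were all correlations over 0.1. That rule cannot decide pairing. Some sets compare ages or sexes, which cannot share a mouse, and single noisy pairs could fail in a paired set. Between limb muscles of a sex those medians were 0.10 to 0.238, against −0.0449 to −0.012 for other numbers. Whether such libraries share a mouse was not settled. With the number as a replicate block 29 calls were made at 27 months, 33 of a slope, 20 between muscles, 22 between sexes, 0 of a difference between sexes in the change and 3 between muscles; Ogn and Omd in male diaphragm lost their calls at 27 months (−0.54 and −0.88) and Ogn in female diaphragm that of its slope. A prior count of 2 moved 0 of 480 group levels beyond the spread of replicates. Depth limits Kera and Omd most, at a median of 493 and 178 reads a library.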

Other observations

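Other cell markers at 27 against 6 months, in the same 8 fits, gave 0 falls and 1 rise in 24 tests for mesothelial genes, 0 and 3 in 64 for adipocyte genes, 3 and 8 in 72 for macrophage genes, 7 and 3 in 48 for Schwann cell genes, 1 and 8 in 72 for liver genes, 0 and 2 in 37 for blood genes, 4 and 6 in 40 for general muscle genes, 0 and 15 in 48 for slow fibre genes and 11 and 2 in 48 for fast fibre genes, beside 7.27% falls and 7.98% rises among all gene tests. Without the libraries with a GC slope the falls were 3 for mesothelial genes, 6 for liver genes, 2 for slow fibre genes and 9 for fast fibre genes, and the rises 12 for macrophage genes.

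The summed level of the 10 proteoglycan genes per kilobase of exon went in female soleus from a median of 712 CPM per kilobase at 6 months (552 to 876) to 468 at 27 months (386 to 573), and in female gastrocnemius from 447 (426 to 478) to 375 (297 to 410). In female tibialis anterior it was 307 (243 to 358) and 263 (203 to 350), with ranges that overlap. These sums are mostly Dcn and were not tested.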
